A study of Mus musculus with 18 samples.

Results

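The P2X and P2Y receptors are the cell-surface receptors for extracellular nucleotides, and 10 of them were followed here: the channels P2rx2, P2rx3, P2rx4 and P2rx7 and the G protein-coupled receptors P2ry1, P2ry2, P2ry4, P2ry12, P2ry13 and P2ry14. A member was taken wherever a probe set of the array was paired with that gene and no other. The 10 genes had 11 such probe sets, P2rx3 having 2, among 19938 genes with 21789 such probe sets in all. The study asked whether loss of the ion channel gene Trpa1 in keratinocytes alters touch and inflammatory sensitivity, and it measured RNA of epidermis and sensory ganglia on 18 Affymetrix Mouse Gene 1.0 ST arrays, 3 in each of 6 groups. Mutant mice were K14Cre-Trpa1fl/fl, in which Cre recombinase under the keratin 14 promoter removes the floxed part of Trpa1 in keratinocytes and other cells of that promoter's lineage. Control mice, which the labels call wild type, were K14Cre-Trpa1+/+, so that both genotypes carried Cre. The mice were adults of at least 7 weeks from separately kept colonies on a mixed background, so genotype and colony cannot be told apart. The 4 epidermis groups were CFA mutant, CFA control, naive mutant and naive control, where CFA (complete Freund's adjuvant, an inflammatory agent) had been injected into the hindpaw in a volume of 50 µl 2 days before. No epidermis from a vehicle-injected paw was analysed here, so injection and adjuvant cannot be told apart. The 2 ganglion groups were dorsal root ganglia (DRG, lumbar 1-6) of naive mutant and naive control mice. Epidermis was the sheet peeled from glabrous hindpaw skin after dispase.

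Cells release ATP and UTP when they are stretched, damaged or inflamed, and the released nucleotides act on neighbouring cells before ectoenzymes degrade them. P2X receptors are ion channels opened by ATP, whereas P2Y receptors signal through G proteins, P2ry1, P2ry2 and P2ry4 mainly through Gq and calcium, and P2ry12, P2ry13 and P2ry14 mainly through Gi. In skin, keratinocytes are a source of ATP and carry both receptor classes, and P2X channels on sensory endings are among the receptors through which ATP can excite nociceptors.

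The tissue labels were checked on marker genes, and the genotype labels could not be checked on Trpa1. Trpa1 was at 8.84, 8.44 and 8.54 in mutant DRG, against 8.99, 8.89 and 9.08 in control DRG, on the log2 scale of the deposited signals. The paper saw no excised Trpa1 DNA in DRG of either genotype, and the cause of this difference was not tested. In epidermis Trpa1 did not exceed background on any of the 12 arrays, so its deletion could not be checked there from RNA. The paper did detect excised Trpa1 DNA in mutant epidermis. Receptors of the nose served as background: on each array the level was that below which 95% of 1218 olfactory, vomeronasal and trace-amine receptor probe sets fell, and it lay between 4.58 and 4.79 in epidermis and between 5.77 and 5.92 in DRG. All 7 keratinocyte markers measured were above it on every epidermis array, and all 9 sensory neuron markers on every DRG array. Of gene-paired probe sets, 67.6% to 69.4% were above background on an epidermis array and 71.0% to 72.4% on a DRG array. Array signals carry no read depth, and precision is limited by the 3 arrays of a group. These are whole tissues, in which fewer cells of a type and less RNA per cell cannot be told apart.

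Upstream sequence is shown for P2ry4, P2ry2 and P2ry1, the 3 members whose signal changed after CFA in both genotypes. Each stretch is the part of the RefSeq window (build GRCm38.p6) that lies upstream of the gene, 5′ to 3′ on the gene's own strand. Capitals mark matches, on either strand, to the TATA box TATAAA, the box named CCAAT after its letters, the GC box GGGCGG, the AP-1 site TGANTCA, the cAMP response element TGACGTCA or the grainyhead site AACCGGTT.
P2ry4, 192 bases, chrX:100594928-100595119, minus strand: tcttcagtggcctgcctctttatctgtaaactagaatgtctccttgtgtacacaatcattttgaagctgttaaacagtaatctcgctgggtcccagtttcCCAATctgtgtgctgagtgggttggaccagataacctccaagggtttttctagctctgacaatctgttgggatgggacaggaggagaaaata
P2ry2, 250 bases, chr7:101012054-101012303, minus strand: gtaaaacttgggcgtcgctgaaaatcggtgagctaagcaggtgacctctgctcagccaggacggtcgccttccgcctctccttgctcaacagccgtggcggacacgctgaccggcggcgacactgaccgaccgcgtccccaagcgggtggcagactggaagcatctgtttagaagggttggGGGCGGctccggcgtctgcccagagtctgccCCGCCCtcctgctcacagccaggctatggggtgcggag
P2ry1, 250 bases, chr3:61002535-61002784, plus strand: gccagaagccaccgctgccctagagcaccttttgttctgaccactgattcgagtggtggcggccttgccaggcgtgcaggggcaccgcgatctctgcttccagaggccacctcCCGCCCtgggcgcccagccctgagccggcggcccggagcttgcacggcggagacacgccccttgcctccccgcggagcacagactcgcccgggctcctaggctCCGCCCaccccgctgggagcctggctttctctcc
The P2ry4 stretch was 44.8% G or C and held 1 CCAAT match and none of the others. The P2ry2 and P2ry1 stretches were 65.2% and 70.8% G or C, and each held 2 GC boxes and no other match. A GC box occurred in 32.7% of 32851 mouse promoter windows of 250 bases, where the median was 52.4% G or C. In windows of 192 bases a GC box occurred in 23.3% and CCAAT in 27.1%, and the median was 51.6% G or C. The other 4 motifs occurred in 12.4% (TATA box), 6.75% (AP-1 site), 1.55% (cAMP response element) and 0.116% (grainyhead site) of the 250-base windows. The receptor whose signal fell after CFA most, P2ry4, was the one of the 3 with the lowest G and C content and without a GC box. Its stretch was also the shortest, and most windows of that length held no GC box. This describes these windows only.

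After CFA, P2ry4 fell and P2ry1 rose in both genotypes, with a smaller fall of P2ry2. Of the 11 member probe sets, 4 were called in mutant epidermis, 1 higher and 3 lower, at an adjusted p under 0.05 (limma, Benjamini-Hochberg over 23410 gene-paired probe sets), where 26% of all probe sets were called (12.9% higher, 13.1% lower). In control epidermis 5 were called, 2 higher and 3 lower, beside 26.3% of all probe sets (11.5% higher, 14.8% lower). With so much of the array moving, the number of members called says little about the family, and the sizes and directions of single members are given below. The mutant and control comparisons used different arrays.

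**Figure D1:**
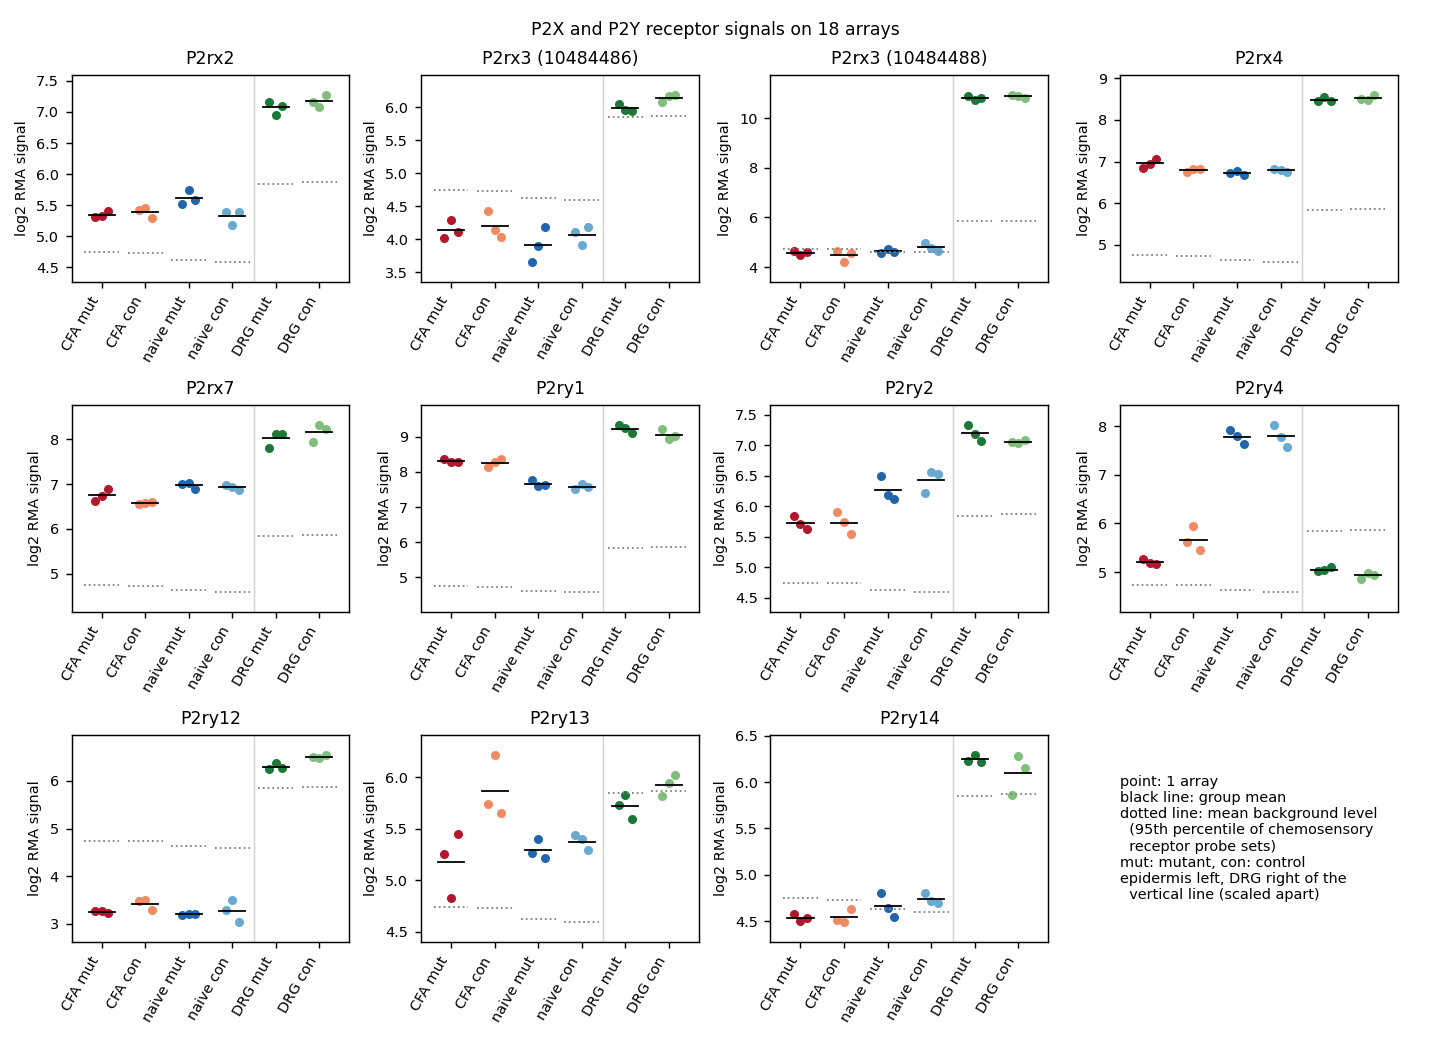
Log2 signal (vertical axis) of each of the 11 member probe sets on every array, by group, with group means as black lines and the mean background level as dotted lines. P2ry4 stands near 8 on the naive epidermis arrays and under 6 on every CFA array, and P2rx3 at probe set 10484488 is near background in epidermis and near 11 in DRG.

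Among the Gq-coupled receptors, P2ry4 is a receptor for UTP and, in rodents, also for ATP. Its log2 signal was 5.26, 5.19 and 5.17 in CFA mutant epidermis, against 7.93, 7.80 and 7.64 in naive mutant epidermis. It was 5.61, 5.94 and 5.45 in CFA control epidermis, against 8.03, 7.77 and 7.58 in naive control epidermis. Every CFA array thus lay well below every naive array of its genotype, and above background. In CFA mutants the signal was only 0.44 to 0.49 log2 units above background. It passed the 99th percentile of the background receptors on 0 of 3 CFA mutant and 1 of 3 CFA control arrays. The fall was 2.58 log2 units in mutants (SE 0.09, 5.98-fold, adjusted p = 5.45e-07, n = 3 each) and 2.13 in controls (SE 0.15, 4.37-fold, adjusted p = 1.29e-05, n = 3 each). P2ry4 was the only member past 2-fold, the size the study required, in either genotype, a size that 3.48% of probe sets reached in mutants and 4.75% in controls with an unadjusted p under 0.05.

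The probe sets whose signals followed P2ry4 most closely over the 12 epidermis arrays were those of Crct1, Lce1d and Lce1b, each at Pearson r = 0.99. All 3 encode small proteins of the cornified layer, the outermost differentiated sheet of the epidermis. They were the closest of the other probe sets paired with exactly 1 gene by this measure, which carries no test. The 12 arrays fall into 6 CFA and 6 naive ones, and a shared fall after CFA raises r for any pair of genes. Within the 6 CFA arrays r was 0.97 for Crct1, 0.99 for Lce1d and 0.95 for Lce1b. Within the 6 naive arrays it was -0.39, -0.28 and 0.02, so the likeness lay in the fall and in the order of the CFA arrays. Crct1 was at 7.28, 7.14 and 6.89 in CFA mutant epidermis and 8.27, 8.62 and 7.58 in CFA control epidermis. On the naive arrays it was at 12.66, 12.52 and 12.63 in mutants and 12.54, 12.63 and 12.64 in controls. The order of the 3 CFA control arrays was the same in Crct1 as in P2ry4, with replicate 2 highest and replicate 3 lowest.

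**Figure D2:**
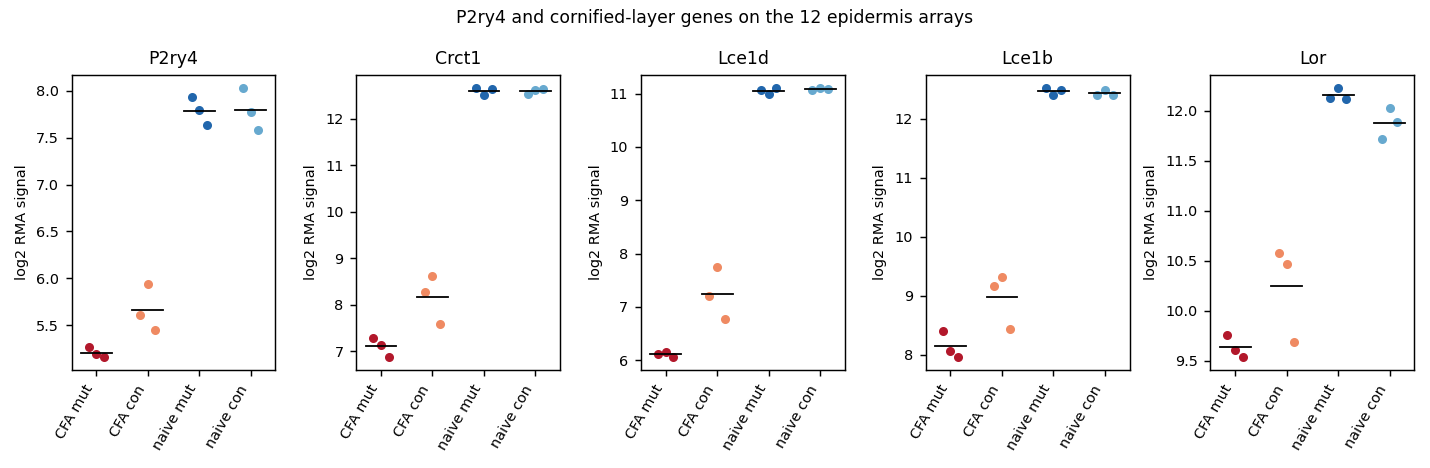
Log2 signal (vertical axis) of P2ry4, of the 3 genes whose signals followed it most closely and of loricrin (Lor) on the 12 epidermis arrays, by group, with means as lines. All 5 are lower on average in CFA than in naive epidermis of each genotype. Crct1, Lce1d and Lce1b are lower on each CFA mutant array than on each CFA control array, as P2ry4 is. Crct1, Lce1d and Lce1b were picked by their likeness to P2ry4 on these same arrays, so the shared order is no separate evidence.

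Some markers of keratinocyte differentiation moved with P2ry4. In mutants, Lor, a main protein of the cornified envelope, fell by 2.52 log2 units (adjusted p = 4.03e-07) and involucrin (Ivl) by 1.21 (adjusted p = 3.98e-05), while the basal keratin Krt14 rose by 0.39 (adjusted p = 0.0058). In controls Lor fell by 1.63 (adjusted p = 0.00049), Ivl by 0.81 (adjusted p = 0.0016), and Krt14 rose by 0.32 (adjusted p = 0.021). Of the 7 keratinocyte markers measured, 2 rose and 3 fell in mutants, and 1 rose and 3 fell in controls. Of all probe sets 26% were called in mutants and 26.3% in controls. The suprabasal keratin Krt10 was not called, with differences of -0.06 in mutants (adjusted p = 0.64) and -0.07 in controls (adjusted p = 0.60). The part of differentiation stage in the P2ry4 signal was not tested.

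P2ry2 responds to ATP and UTP alike. Its signal was 5.84, 5.71 and 5.62 in CFA mutant epidermis, against 6.49, 6.19 and 6.12 in naive mutant epidermis. It was 5.91, 5.75 and 5.54 in CFA control epidermis, against 6.22, 6.56 and 6.53 in naive control epidermis. The CFA arrays were below the naive arrays in both genotypes, without overlap. P2ry2 fell by 0.55 log2 units in mutants (SE 0.11, adjusted p = 0.0083) and by 0.71 in controls (SE 0.13, adjusted p = 0.0033). Both calls were lost under an ordinary analysis of variance without moderation, at adjusted p = 0.067 in mutants and 0.054 in controls. Closest to P2ry2 over the 12 epidermis arrays were Atp8a1, a phospholipid flippase, Muc15, a membrane mucin, and Them5, a thioesterase, each at r = 0.96.

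P2ry1, an ADP receptor, moved the other way. It was at 8.35, 8.28 and 8.27 in CFA mutant epidermis, against 7.75, 7.59 and 7.62 in naive mutant epidermis. In CFA control epidermis it was at 8.14, 8.27 and 8.36, against 7.52, 7.66 and 7.55 in naive control epidermis. Its lowest CFA array was above its highest naive array in each genotype. P2ry1 rose by 0.64 log2 units in mutants (SE 0.08, 1.56-fold, adjusted p = 0.00058) and by 0.68 in controls (SE 0.09, 1.60-fold, adjusted p = 0.00066). Closest to it over the 12 arrays were Plxnb1, a semaphorin receptor (r = 0.99), Uhrf2, a ubiquitin ligase (r = 0.99), and Snai2, a transcription factor of migrating epithelial cells (r = 0.98).

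**Figure D3:**
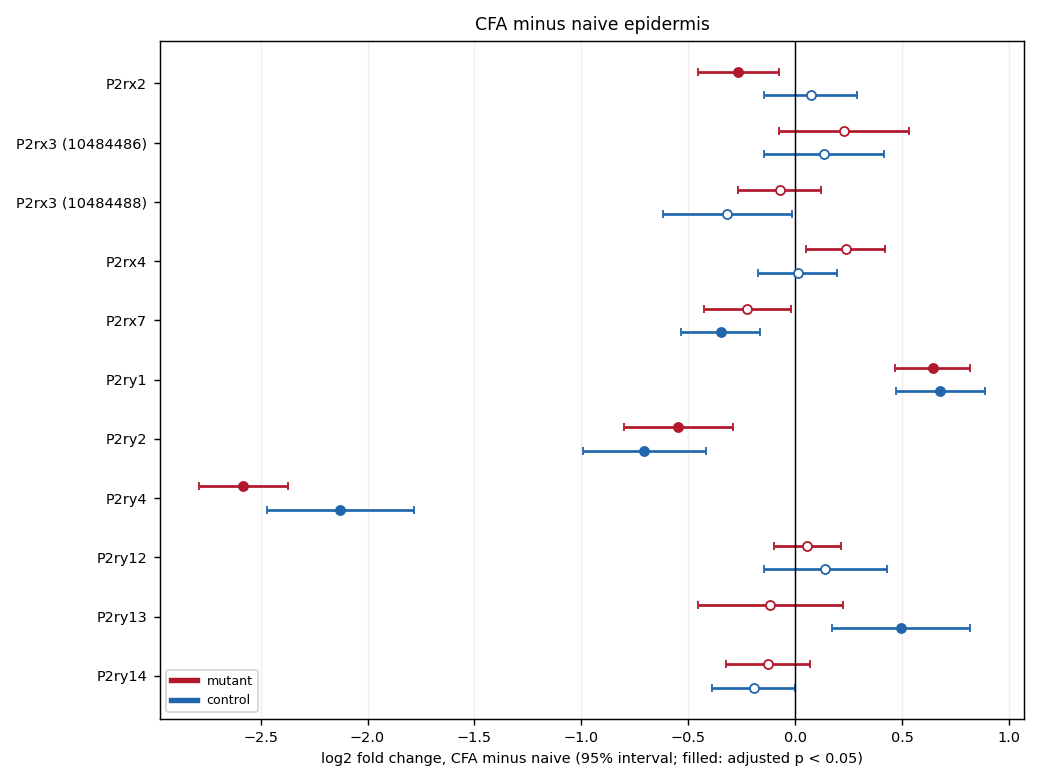
Log2 fold change of CFA over naive epidermis (horizontal axis) for each member probe set, mutants above controls, with 95% intervals from the fit and filled points at an adjusted p under 0.05. P2ry4 lies beyond -2 in both genotypes, P2ry1 lies near 0.7 in both, and only these members and P2ry2 are filled in both genotypes.

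The P2X channels changed little after CFA. P2rx7, which opens at high ATP and drives interleukin-1 processing in macrophages, was at 6.63, 6.73 and 6.89 in CFA mutant epidermis and 7.0, 7.02 and 6.89 in naive mutant epidermis. It was at 6.55, 6.58 and 6.61 in CFA control epidermis and 6.97, 6.94 and 6.87 in naive control epidermis. In controls it fell by 0.35 log2 units (SE 0.08, adjusted p = 0.013), and in mutants the difference of -0.22 (SE 0.09) did not pass (adjusted p = 0.0999). The control call was lost without naive control replicate 1 (adjusted p = 0.057) or replicate 2 (adjusted p = 0.051), and the mutant difference passed without CFA mutant replicate 3 (adjusted p = 0.047). Closest to P2rx7 were Fyco1, an adaptor for vesicle transport (r = 0.98), Ppp1r15b, a phosphatase subunit of the stress response (r = 0.95), and Med8, a Mediator subunit (r = 0.95). A second probe set of Ppp1r15b was at r = 0.27.

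P2rx4, an ATP-gated channel also found on lysosomes, was at 6.85, 6.95 and 7.06 in CFA mutant epidermis and 6.73, 6.77 and 6.67 in naive mutant epidermis. It was at 6.75, 6.83 and 6.83 in CFA control epidermis and 6.83, 6.80 and 6.75 in naive control epidermis. The mutant groups did not overlap, yet the difference of 0.24 (SE 0.08) did not pass (adjusted p = 0.065), while it did pass with further quantile normalization, without dim probe sets and with all 4 epidermis groups in 1 fit (adjusted p = 0.025 to 0.041). In controls the groups overlapped, with a difference of 0.01 (95% interval -0.17 to 0.20). Groups did not overlap for 7 of the 11 member probe sets in mutants and 6 in controls, beside 43.5% and 43.8% of all probe sets.

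P2rx2, which can join P2rx3 in channels of sensory neurons, was at 5.31, 5.33 and 5.41 in CFA mutant epidermis and 5.53, 5.74 and 5.58 in naive mutant epidermis. The fall was 0.27 log2 units (SE 0.08, adjusted p = 0.046), and the call was lost without any 1 of the 6 arrays (adjusted p = 0.057 to 0.14). In controls P2rx2 was at 5.43, 5.46 and 5.30 after CFA and 5.39, 5.19 and 5.38 in naive epidermis, overlapping groups with a difference of 0.07 (adjusted p = 0.61). Closest to P2rx2 were Ccdc57 (r = 0.90), 1810062O18Rik (r = 0.84) and Crybg1 (r = 0.84), though a second and brighter probe set of Crybg1 did not follow it (r = -0.11).

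P2rx3, the ATP-gated channel of small sensory neurons, was close to background in epidermis. At probe set 10484488, its CFA signals were 4.67, 4.47 and 4.60 in mutants and 4.64, 4.23 and 4.56 in controls, none above background. The naive signals were 4.59, 4.75 and 4.63 in mutants, 2 of them above background, and 4.99, 4.76 and 4.64 in controls, all 3 above background. The measured difference in controls was -0.32 (adjusted p = 0.11). Probe set 10484486 was below background on all 12 epidermis arrays.

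The 3 Gi-coupled receptors P2ry12, P2ry13 and P2ry14 are neighbours on mouse chromosome 3, and of them P2ry13 alone was above background on all 12 epidermis arrays. Its lowest CFA array was only 0.08 log2 units above background. It passed the 99th percentile of the background receptors on 0 of 3 arrays in each mutant epidermis group and 2 of 3 in each control epidermis group. P2ry13, an ADP receptor of macrophages and other myeloid cells, was at 5.25, 4.83 and 5.45 in CFA mutant epidermis and 5.27, 5.40 and 5.21 in naive mutant epidermis. The mutant groups overlapped, with a difference of -0.12 (SE 0.15, adjusted p = 0.61). P2ry13 was at 5.74, 6.22 and 5.66 in CFA control epidermis and 5.44, 5.40 and 5.29 in naive control epidermis. In controls it rose by 0.50 log2 units (SE 0.14, adjusted p = 0.031), without overlap. The control value rested on few arrays: without CFA control replicate 2, the highest, the difference was 0.32 (adjusted p = 0.055), and without any 1 naive control array the adjusted p was 0.064 to 0.095. Closest to P2ry13 over the 12 arrays were Ghitm, a mitochondrial membrane protein (r = 0.95), Ccdc180 (r = 0.93) and Nckap5 (r = 0.92). Nckap5 ran opposite to P2ry13 within the 6 naive arrays (r = -0.96), and its other probe set was at r = 0.28 over the 12 arrays. The 26 other probe sets of Ccdc180 were at r = -0.49 to 0.74. Among the other genes named here as closest to P2rx2, P2rx7, P2ry1, P2ry2 and P2ry13, r lay between 0.62 and 0.98 within the CFA arrays and between 0.53 and 0.92 within the naive arrays. P2ry14, the UDP-glucose receptor, was above background on no CFA array of either genotype, on 1 of 3 naive mutant arrays and on all 3 naive control arrays. Its measured difference after CFA in controls was -0.19 (adjusted p = 0.13). P2ry12, the ADP receptor of platelets and microglia, was below background on all 12 epidermis arrays.

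Of the myeloid markers, most of those of Langerhans and dendritic cells rose in controls, as P2ry13 did, whereas most macrophage and monocyte markers were not called. The mean log2 signal of 8 Langerhans and dendritic cell genes was 6.58, 6.67 and 6.57 in CFA mutant epidermis and 6.89, 6.88 and 6.76 in CFA control epidermis, against 6.48 to 6.55 in naive mutant and 6.49 to 6.50 in naive control epidermis. After CFA 1 of the 8 rose in mutants and 5 rose in controls, none falling, beside 12.9% and 11.5% of all probe sets rising. As an interaction 0 of the 8 were called, so these counts are no shown difference between the genotypes. Csf1r, the receptor for macrophage colony-stimulating factor, was at 6.92, 6.88 and 6.85 in CFA mutant epidermis and 7.63, 7.65 and 7.71 in CFA control epidermis, against 7.05, 7.01 and 7.05 in naive mutant and 7.28, 7.14 and 7.16 in naive control epidermis. Langerin (Cd207), which defines Langerhans cells, was at 6.29, 6.15 and 5.91 in CFA mutants and 6.91, 6.93 and 6.62 in CFA controls, against 6.31, 6.15 and 6.37 in naive mutants and 6.53, 6.37 and 6.42 in naive controls. Of these markers Csf1r alone was called between genotypes in CFA epidermis, at -0.78 (adjusted p = 0.010). There 6 of the 8 Langerhans and dendritic cell genes had a negative difference and 2 a positive one (median -0.32). Of 10 macrophage and monocyte genes, Csf1r among them, 6 were negative and 4 positive (median -0.05). Of 8 neutrophil genes 3 were negative and 5 positive, and none was called. The mean over 10 macrophage and monocyte genes was 4.40 to 4.49 in CFA mutant and 4.40 to 4.57 in CFA control epidermis, against 4.37 to 4.50 in naive mutant and 4.38 to 4.48 in naive control epidermis, where 1 of the 10 rose and 1 fell in mutants, and 2 rose and 1 fell in controls after CFA. The macrophage and monocyte counts stand beside 26% of all probe sets called in mutants and 26.3% in controls. The part of these cells in the P2ry13 signal was not tested.

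Between genotypes no member passed the threshold. In CFA epidermis 0 of 11 member probe sets were called by limma, where 0.179% of all probe sets were, and 2 had an unadjusted p under 0.05, beside 8.96% of all. P2ry13, at the signals given above, was lower on each CFA mutant array than on each CFA control array, a difference of -0.69 log2 units (SE 0.18, unadjusted p = 0.0041, adjusted p = 0.25). Leaving out 1 array gave -0.83 to -0.52. P2ry4 was likewise lower on each CFA mutant array, a difference of -0.46 (SE 0.13, unadjusted p = 0.0052, adjusted p = 0.27). Crct1, Lce1d and Lce1b averaged 7.10, 6.11 and 8.14 in CFA mutants, against 8.16, 7.24 and 8.97 in CFA controls. These genes were picked for following P2ry4 over the same arrays, so their lower values in CFA mutants are no separate evidence for P2ry4. P2rx4 and P2rx7 were higher on each CFA mutant array than on each CFA control array, by 0.15 (adjusted p = 0.72) and 0.17 (adjusted p = 0.69). With P2ry12, which is below background there, 5 of 11 member probe sets did not overlap, beside 14.3% of all probe sets. For the other 6 the differences lay between -0.06 and 0.10.

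In naive epidermis 0 of 11 were called, where 0.0299% of all probe sets were, and 1 had an unadjusted p under 0.05, beside 8.94% of all. P2rx2 was higher on each naive mutant array than on each naive control array, by 0.29 log2 units (SE 0.09, unadjusted p = 0.011, adjusted p = 0.47), the only member of 11 without overlap, beside 16.6% of all probe sets. P2ry4, the member that CFA moved most, differed by -0.01 between genotypes in naive epidermis (95% interval -0.30 to 0.28). The remaining differences lay between -0.17 and 0.08.

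The difference between genotypes in the response to CFA was tested as an interaction over the 12 epidermis arrays. It was called for 0 of 11 member probe sets by limma and for 0.0256% of all, and 3 members had an unadjusted p under 0.05, beside 8.26% of all. P2ry13 differed by -0.61 log2 units (SE 0.22, adjusted p = 0.49), P2ry4 by -0.45 (SE 0.19, adjusted p = 0.55) and P2rx2 by -0.34 (SE 0.12, adjusted p = 0.48), each more negative in mutants. A call for P2ry13 in controls and not in mutants is therefore no shown difference between the genotypes. The 95% interval for P2ry1, -0.28 to 0.21, included zero. These comparisons and those of CFA with naive epidermis share arrays.

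**Figure D4:**
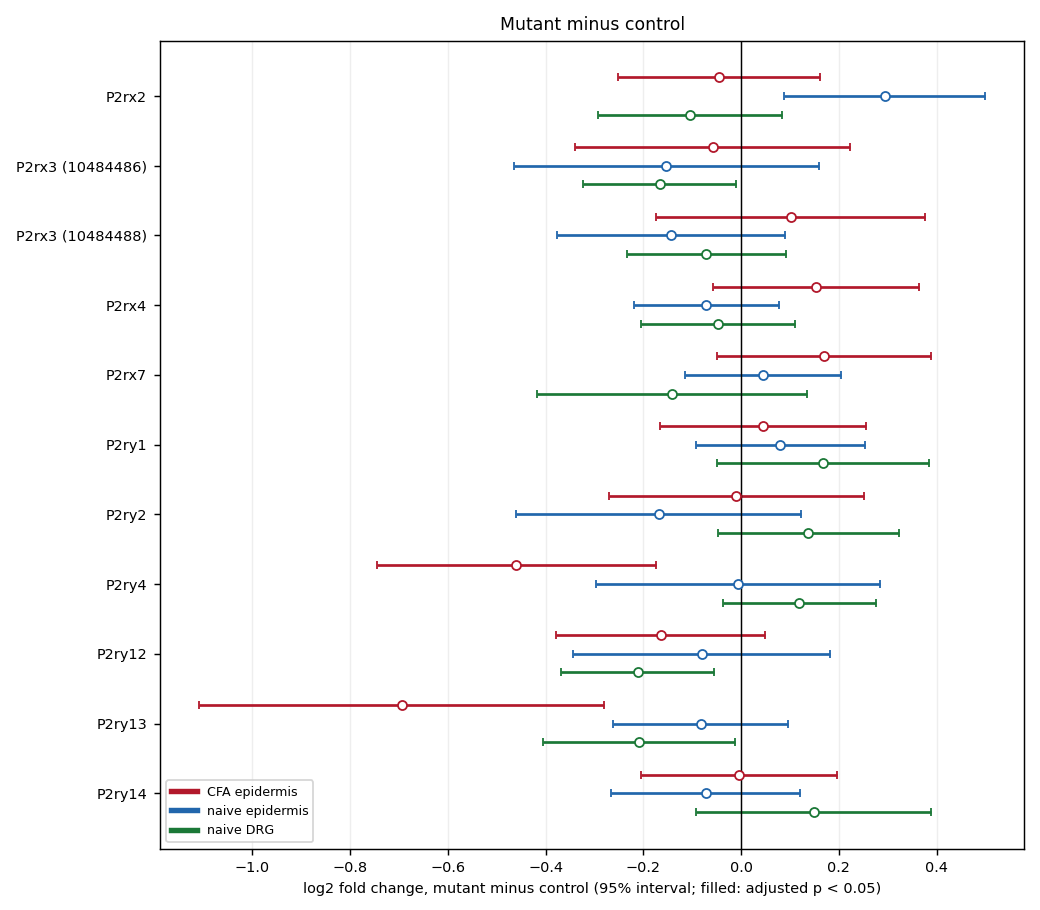
Log2 fold change of mutant over control (horizontal axis) for each member probe set in CFA epidermis, naive epidermis and naive DRG, with 95% intervals from the fit. No point is filled, since none passed an adjusted p of 0.05, and the intervals farthest from zero are those of P2ry13 and P2ry4 in CFA epidermis.

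In DRG 0 of 11 member probe sets were called by limma, where 0.0726% of all probe sets were, and 3 had an unadjusted p under 0.05, beside 7.15% of all. P2rx3 at probe set 10484488 was at 10.87, 10.74 and 10.82 in mutant DRG and 10.94, 10.89 and 10.81 in control DRG. The groups overlapped, with a difference of -0.07 (95% interval -0.23 to 0.09, adjusted p = 0.83). The second P2rx3 probe set, 10484486, is tied to a cDNA clone, lay just above background in DRG and gave 6.05, 5.95 and 5.94 in mutants and 6.09, 6.16 and 6.19 in controls. It did not overlap, with a difference of -0.17 (SE 0.07, unadjusted p = 0.040, adjusted p = 0.69), so the P2rx3 probe sets differed in whether the genotypes overlapped. P2rx2, at 7.16, 6.96 and 7.10 in mutants and 7.16, 7.09 and 7.28 in controls, overlapped (-0.11, adjusted p = 0.77).

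P2ry12 was at 6.24, 6.38 and 6.27 in mutant DRG and 6.50, 6.48 and 6.55 in control DRG. It was lower on each mutant array, by 0.21 log2 units (unadjusted p = 0.014, adjusted p = 0.597). P2ry13, at 5.74, 5.82 and 5.60 in mutants and 5.82, 5.94 and 6.03 in controls, was also lower on average (-0.21, unadjusted p = 0.039, adjusted p = 0.69) and exceeded background on 1 mutant and 2 control arrays. All 8 measured markers of the resident macrophages of nervous tissue had negative differences in DRG, with a median of -0.09, and none was called. Their mean log2 signal was 6.82 to 6.96 in mutants and 6.84 to 7.12 in controls. Of 10 macrophage and monocyte markers 9 were negative and 1 positive. All 4 measured platelet and megakaryocyte markers were positive instead (median 0.05). Lists of a single sign were not rare in DRG. The 7 keratinocyte, 6 nonpeptidergic nociceptor and 5 Schwann cell markers were all positive, and none of these markers was called. The part of these cell types in P2ry12 and P2ry13 was not tested. Of the 11 member probe sets 3 did not overlap between genotypes in DRG, beside 11.8% of all, among them P2ry4, which is below background there.

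P2ry1 was at 9.34, 9.23 and 9.10 in mutant DRG and 9.21, 8.93 and 9.02 in control DRG, overlapping groups with a difference of 0.17 (adjusted p = 0.73). P2ry2 was at 7.34, 7.18 and 7.07 in mutants and 7.06, 7.04 and 7.09 in controls, which also overlapped (0.14, adjusted p = 0.73). P2rx4, P2rx7 and P2ry14 were above background on all 6 DRG arrays and differed by -0.05, -0.14 and 0.15 (adjusted p = 0.75 to 0.89).

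DRG and epidermis arrays were scaled apart, so tissue and scaling cannot be told apart, and the tissues are set side by side only by the rank of a probe set among the 23410 gene-paired probe sets of its own array. No test was made. Of 11 member probe sets, 7 ranked higher on all 6 naive DRG arrays than on all 6 naive epidermis arrays, and 2 ranked lower, beside 28.9% higher and 37.3% lower of all probe sets. The 7 counted both probe sets of P2rx3. They also counted P2rx7, which barely separated, at 67.59 to 76.78 in DRG and 65.32 to 67.48 in epidermis. P2rx3 at probe set 10484488 was between the 97th and 97.6th percentile in DRG, against the 30.6th to 38th in epidermis, and P2rx4 was at 78.4 to 80.8 against 62.5 to 64. P2ry12 was at 35.3 to 41.8 in DRG and 7.95 to 14.2 in epidermis. The reverse held for P2ry4, at 14.4 to 17 in DRG and 75.5 to 80.6 in epidermis, and for P2ry13, at 23.9 to 31.6 in DRG and 40.8 to 45.5 in epidermis. P2ry2 and P2ry14 overlapped between the tissues. P2ry4 was below background on all 6 DRG arrays and above it on all 12 epidermis arrays, the only member with that pattern.

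**Figure D5:**
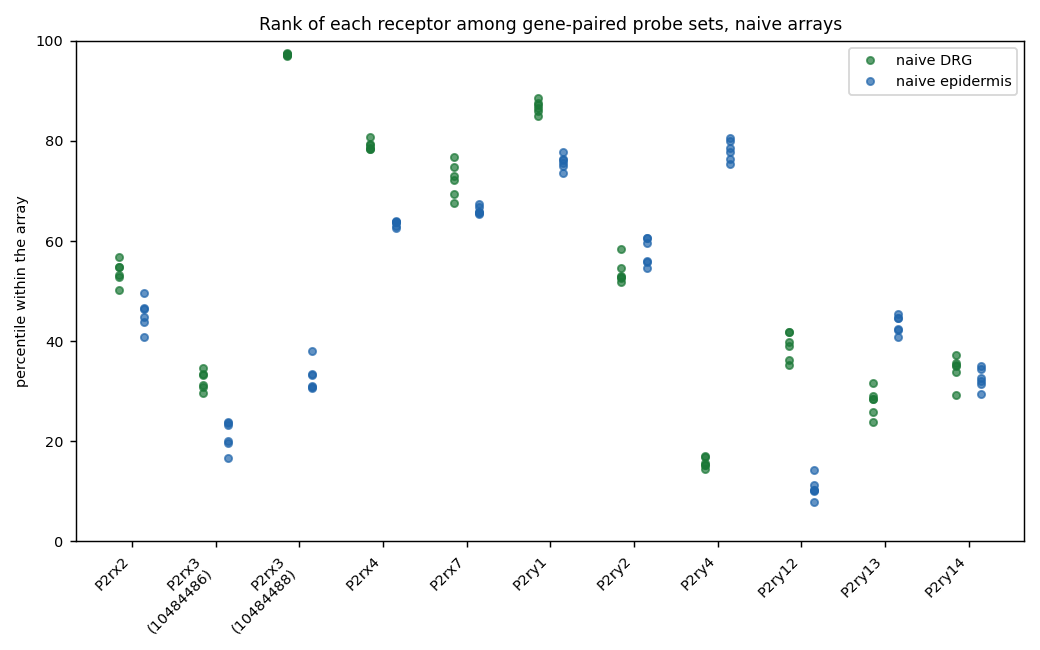
Percentile of each member probe set among gene-paired probe sets of its array (vertical axis, 0 to 100) on the 6 naive DRG and 6 naive epidermis arrays, 1 point per array. P2rx3 at probe set 10484488 and P2ry4 lie at opposite ends, the one high in DRG and the other high in epidermis.

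The other genes of nucleotide signalling were followed from lists of further P2 receptors, enzymes that break down nucleotides and nucleosides, channels and transporters for ATP release, and nucleoside transporters. Of 6 further P2 receptors, 1 rose after CFA in mutants (P2rx6, by 0.38, adjusted p = 0.0081) and 1 in controls (P2ry6, a UDP receptor, by 0.41, adjusted p = 0.015), and none fell. These counts, and those after CFA for the lists that follow, stand beside 26% of all probe sets called in mutants and 26.3% in controls. Of 12 ATP release genes, 2 rose and 4 fell in mutants, and 2 rose and 5 fell in controls. Panx1, the pannexin that releases ATP, rose by 0.61 in mutants (adjusted p = 0.0042) and by 0.96 in controls (adjusted p = 0.00018). The connexins Gjb6 and Gjb2 fell, Gjb6 by 1.63 in mutants (adjusted p = 4.00e-05) and 2.05 in controls (adjusted p = 1.23e-06), and Gjb2 by 1.19 (adjusted p = 0.00015) and 1.59 (adjusted p = 1.14e-05) in the same order. Panx3 fell by 1.37 in mutants (adjusted p = 0.00059) and 1.63 in controls (adjusted p = 1.01e-05), and Ank, which exports pyrophosphate and ATP, by 0.99 (adjusted p = 0.0013) and 1.11 (adjusted p = 7.63e-05). Panx2 rose in both genotypes, and the volume-regulated channel subunit Lrrc8a fell in controls only, a contrast that was not called as an interaction.

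Of 13 breakdown enzymes, 1 rose and 4 fell in mutants, and 1 rose and 5 fell in controls. Nt5e (CD73), which forms adenosine from AMP, fell by 1.12 in mutants (adjusted p = 0.00044). In controls Nt5e fell by 1.19 (adjusted p = 0.00070). Acpp, Entpd5 and Enpp3 of the breakdown list also fell in both genotypes, and adenosine deaminase (Ada) in controls. Entpd1 (CD39), which removes ATP and ADP, rose in mutants, and adenosine kinase (Adk) in controls. Of 7 nucleoside transporters, 2 rose and 1 fell in mutants, and 1 rose and 2 fell in controls. The concentrative transporter Slc28a3 fell by 1.59 in mutants (adjusted p = 0.00010) and by 2.09 in controls (adjusted p = 4.63e-06). Slc29a2 rose in both genotypes, Slc29a4 rose in mutants, and Slc29a1 fell in controls. Between genotypes none of these 38 genes was called by limma. The smallest p values in CFA epidermis were those of Gjb2 (0.67, adjusted p = 0.11) and Gjb6 (0.51, adjusted p = 0.21), in naive epidermis those of Gjb2 (0.27) and Entpd5 (-0.20), both at adjusted p = 0.47, and in DRG those of Adk (-0.29, adjusted p = 0.45) and P2ry6 (-0.19, adjusted p = 0.702).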

How the data were processed

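The authors hybridised RNA (100 ng labelled per sample, per the labels) to Affymetrix Mouse Gene 1.0 ST arrays, with 3 biological replicates in each of 6 groups, and deposited log2 signals. The submitters' processing notes name RMA and Partek, and no version or build for the probe sets is stated in what was read. The authors used ANOVA, and their methods required a 2-fold change with an FDR-adjusted p under 0.05. For naive epidermis they instead applied the 2-fold rule with no FDR correction. An ordinary ANOVA without and with the 2-fold and FDR-adjusted rule, and a 2-fold rule with an unadjusted p, were run as alternatives. No source pairs the epidermis of a mouse with its DRG. Of 35556 probe sets, 23410 were paired with a gene by the platform annotation (21789 with 1 gene, 1621 with several) and 12146 were unnamed. Members were the probe sets paired with exactly 1 receptor gene.

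Each comparison was fitted with limma 3.58.1 (lmFit, eBayes; R 4.3.3) using only the arrays of the groups compared, and the interaction on the 12 epidermis arrays. The Benjamini-Hochberg adjustment ran over the 23410 probe sets, with calls at an adjusted p under 0.05. The script was tested on simulated data. Figures and ranks used Python 3.11.15, numpy 2.4.6, pandas 2.3.3 and matplotlib 3.10.9.

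The members and gene lists were chosen with earlier results of these data known. All members are named. Of the other lists, named genes were called genes with the smallest adjusted p (at most 6 a comparison) or, where none was called, the 2 with the smallest p, and the remaining names were picked after their values were seen. Adenosine receptors were not analysed here. For each called member the 3 genes with the highest Pearson r over the epidermis arrays are given. Alternatives were further quantile normalization, median centring, testing without dim probe sets, all probe sets, limma's trend and robust options, an ordinary ANOVA, 1 fit of all epidermis groups, a replicate block, leaving out each array and other background levels. The labels give replicate numbers and do not say whether equal numbers pair samples. After group means were removed, same-numbered arrays of compared groups correlated at r = -0.24 to 0.23, and differently numbered ones at -0.27 to 0.17. With 3 arrays a group this cannot settle whether equal numbers share a batch. The ANOVA with the 2-fold rule, and leaving out the 2 DRG arrays with most keratinocyte transcripts, were added after the data were seen.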

Additional observations from a re-analysis of the deposited data

Results flagged for a closer look

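P2ry4 differed between the genotypes in opposite directions in CFA epidermis and in DRG. It was lower on each mutant array than on each control array in CFA epidermis (-0.46 on the log2 scale) and higher on each in naive DRG (0.12). In DRG all 6 arrays were below background, and neither difference passed the threshold. The difference between the tissues was not tested.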

How the results depend on the processing

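The calls of P2ry4 and P2ry1 after CFA held in both genotypes under each of the 14 alternative fits run for each, but P2ry1 did not reach 2-fold and was lost under both 2-fold rules, which P2ry4 alone passed in either genotype. Of the 5 members called in controls after CFA, 3 were called by an ordinary ANOVA and 1 under each 2-fold rule (limma with unadjusted p, or ANOVA with adjusted p), and 3 to 5 when 1 array was left out. Without naive control replicate 1 or replicate 2 the P2rx7 and P2ry13 calls were lost. Of the 4 called in mutants, 2 were called by the ANOVA and 1 under each 2-fold rule. Leaving out 1 array ended the P2rx2 call in all 6 fits and kept the other 3, and the count was 3 to 4 because P2rx7 was added without CFA mutant replicate 3. The P2ry13 call in controls was lost in 7 of 14 alternatives, among them further quantile normalization (adjusted p = 0.063) and testing all probe sets (adjusted p = 0.074). The replicate block ended the P2rx2 call in mutants (difference -0.27, adjusted p = 0.074), and it changed no other call. Whether equal replicate numbers pair samples is not stated in the labels. Further quantile normalization added P2rx3 (probe set 10484488) and P2ry14 to the calls in controls (adjusted p = 0.047 and 0.042). With arrays centred on their medians, 2588 probe sets rose and 3261 fell after CFA in mutants, against 3028 and 3068 as given, and 2162 rose and 3792 fell in controls, against 2683 and 3467. No member call changed with it.

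With the background level raised to the 99th percentile, 3 member probe sets were above it on all arrays in CFA mutant and 3 in CFA control epidermis, against 7 in each as given, and 5 in naive control epidermis, against 9. P2rx2, P2ry2, P2ry4 and P2ry13 were those lost in both CFA groups. Directions that changed all belonged to differences that passed no threshold. With further quantile normalization P2ry4 differed by 0.0246 between genotypes in naive epidermis, P2ry14 by 0.00827 in CFA epidermis and P2rx2 by -0.0152 after CFA in controls. With median centring P2ry14 differed by 0.00433 between genotypes in CFA epidermis and P2rx4 by -0.0239 after CFA in controls. Without the 2 DRG arrays with most keratinocyte transcripts P2rx4 differed by 0.00335 in DRG. Leaving out 1 array gave ranges that crossed zero between genotypes in naive epidermis for P2ry4 (-0.11 to 0.11) and P2ry12 (-0.20 to 0.0349), and in CFA epidermis for P2ry2 (-0.11 to 0.0784), P2ry14 (-0.0308 to 0.0379), P2ry1 (-0.0112 to 0.0949) and P2rx3 (-0.14 to 0.0594 at probe set 10484486, -0.0231 to 0.18 at 10484488). The same held after CFA for P2rx4 in controls (-0.0074 to 0.0376) and P2ry13 in mutants (-0.25 to 0.0590), and for the interaction of P2ry1 (-0.0913 to 0.0148), P2rx3 at probe set 10484486 (-0.0301 to 0.23) and P2ry12 (-0.20 to 0.0353). With 3 arrays a group, small differences of dim probe sets such as P2rx3 and P2ry12 in epidermis could not be resolved. The cause of these changes was not tested.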
